A study of Mus musculus with 6 samples.

Results

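The genes described here are 10 markers of alveolar and tissue macrophages, namely Marco, Mrc1, Chil3, Fabp4, Pparg, Itgax, Cd68, Adgre1, Ear2 and Cd163, measured in the lungs of mice with endotoxaemia. For each gene the probe with the highest mean processed signal over the arrays stood for the gene, among probes whose RefSeq accession belongs to it. All 10 had a probe, out of 22815 genes with a matched probe that was kept, and all 10 passed the filter on dim probes that left 16361 genes for the test. Lungs came from 6 male C57BL6 mice aged 10 weeks, which were starved for 16 h and injected i.p. with LPS at 20 mg/kg. Of these, 3 received saline and 3 received recombinant human thrombomodulin (rhTM), a soluble form of the endothelial anticoagulant receptor, at both 3 and 24 h after LPS. Lung RNA was taken at 30 h and hybridised to 1-colour Agilent arrays, with 1 array per mouse. Every mouse had received LPS and no array of a sham mouse was analysed here, so the values compare treatments within endotoxaemia.

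Alveolar macrophages live on the airspace side of the alveolus, where they take up inhaled particles, bacteria and surfactant. They depend on GM-CSF from the alveolar epithelium, which switches on the nuclear receptor PPARγ and with it a lipid-handling programme. A second population, the interstitial macrophages, lies in the lung tissue around airways and vessels. Systemic LPS also brings neutrophils and monocytes into the lung, and these cells share some macrophage genes. In RNA of whole lung, fewer macrophages and less RNA per macrophage cannot be told apart.

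All signals below are given as multiples of the 75th percentile of the same array, so that 1 is the signal of a fairly bright probe. Because probes differ in brightness, a value of 1 gene was never set against that of another gene. Each of the 10 brightest probes was well above background on all 6 arrays, and none was saturated, so each gene had a measured level in every lung. This includes the genes that define the alveolar macrophage, and the labelled tissue also showed the surfactant genes of the alveolar epithelium. Processed signals at the 75th percentile ranged from 675 to 850 between arrays, and 36001 to 40499 probes per array were well above background. The arrays lay on 2 slides with a scan time each. By the scanner output 1 mouse of each group, saline replicate 1 and rhTM replicate 3, was on slide 2, while the other 4 were on slide 1. The spike-in slope was 0.826 for saline replicate 1 and 1.07 to 1.09 for the other arrays.

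One point about the labels touches every value. The authors also deposited a table of values for the same arrays, in which saline replicate 1 and rhTM replicate 2 are exchanged. Of the values in its column for saline replicate 1, 99.93% equalled the scanner output of rhTM replicate 2 to within 0.1%, and 0.137% equalled that of saline replicate 1. Its column for rhTM replicate 2 matched the scanner output of saline replicate 1 for 99.94% of probes. Which of the assignments is right is not settled by the labels or the methods. The scanner output was taken as deposited, and each treatment difference of the 10 macrophage genes is given by the table as well. Where a gene is called higher or lower on average, this refers to the mean of its log2 signals. Under the assignment of the table, the arrays of slide 2 would both come from rhTM-treated mice, replicates 2 and 3.

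No macrophage gene passed the test between rhTM-treated and saline-treated mice, and each had values that overlapped between the groups. Of the 10 genes, 4 had a higher and 6 a lower mean log2 signal with rhTM, where 50.7% of all genes had a higher one, and 0 passed the threshold of an adjusted p of 0.05 with limma. Over all 16361 genes tested, 0 passed in either direction, a background of 0%. At an unadjusted p under 0.05 the counts were 0 of 10 macrophage genes and 305 of 16361 genes, or 1.86%. In 0 of the 10 genes did the groups separate without overlap, against 5.52% of all genes. The median log2 fold change was -0.02 for the macrophage genes and 0.0026 for all genes. The adjusted p was 1.00 after rounding for each of the 10 genes, and all 10 confidence intervals held 0. The bounds of these intervals ran from 0.546-fold to 1.82-fold, so larger changes than those lay outside the 95% interval of every gene by the scanner output.

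**Figure D1:**
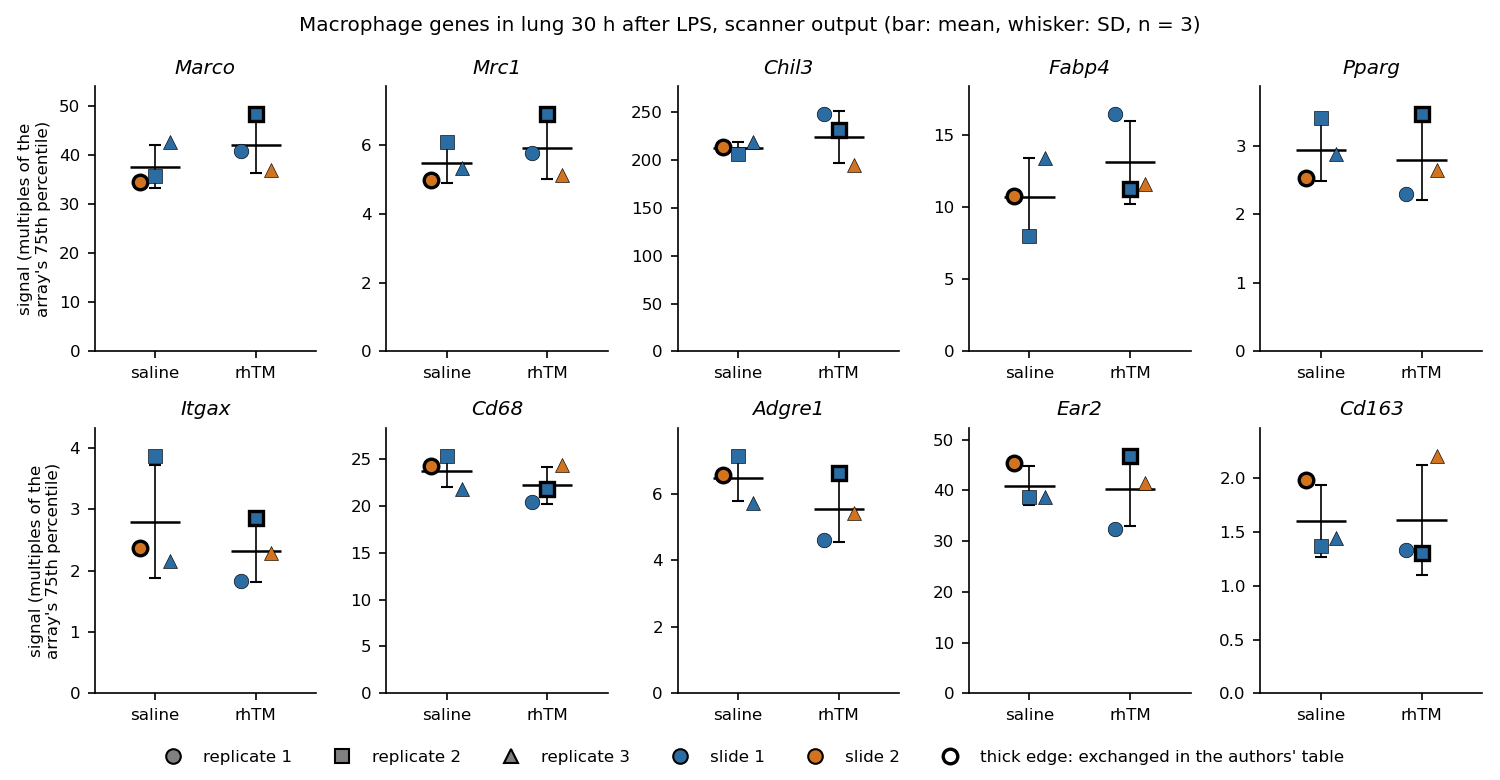
Signal of each macrophage gene in each lung by the scanner output, as multiples of the array's 75th percentile on a linear axis from 0, with saline-treated mice on the left and rhTM-treated mice on the right of each panel. Symbols show the replicate, colours the slide and thick edges the exchanged arrays, while bars and whiskers give the mean and SD of 3 mice. The groups overlap in all 10 panels, and for Cd163 both slide 2 arrays lie above the other 4.

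The receptors of the macrophage surface are described first. Marco encodes a scavenger receptor with a collagen-like stalk that binds unopsonised bacteria and particles. Its signal was 34.5, 35.7 and 42.7 in saline-treated mice and 40.8, 48.2 and 36.9 in rhTM-treated mice. The highest value belonged to rhTM replicate 2 and the lowest to saline replicate 1, and the groups overlapped. The log2 fold change was 0.16 (95% confidence interval -0.21 to 0.52), with an exact two-sided permutation p of 0.40, where 3 mice against 3 cannot give less than 0.10. With 1 array left out of the scanner output it ran from 0.05 (without rhTM replicate 2) to 0.25 (without saline replicate 3). As the highest and the lowest array are the pair that the table exchanges, the table turned the difference to -0.17 (-0.51 to 0.17).

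Mrc1 encodes the mannose receptor CD206, an endocytic lectin of alveolar and interstitial macrophages. Saline-treated mice had 4.99, 6.10 and 5.32, and rhTM-treated mice had 5.76, 6.89 and 5.12. The same arrays as for Marco were highest and lowest. Its log2 fold change of 0.11 (-0.26 to 0.48) became -0.20 (-0.51 to 0.11) by the table.

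Cd163 encodes the scavenger receptor for haemoglobin bound to haptoglobin, which is typical of interstitial rather than alveolar macrophages. Its signal was 1.98, 1.37 and 1.45 in saline-treated mice and 1.34, 1.30 and 2.20 in rhTM-treated mice. In each group 1 mouse stood above the other two, and both of these mice were on slide 2. The log2 fold change was -0.01 (-0.61 to 0.59) by the scanner output, while a second, dimmer probe that was above background on 5 arrays gave -0.51 (SE 0.28). By the table both high arrays belong to the rhTM-treated mice, and the difference was 0.39 (-0.08 to 0.86), with a limma adjusted p of 0.406. With slide as a block the table gave -0.04 (SE 0.12) for the same probe, and the second probe gave -0.03 (SE 0.34) by the table without the block. Without rhTM replicate 1 the table gave 0.61 with a limma adjusted p of 0.0395, the 1 call made for any of the 10 genes. That fit called 566 genes over the whole array. It left all rhTM-treated mice on slide 2 and all saline-treated mice on slide 1, so that treatment and slide cannot be told apart.

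Itgax encodes CD11c, the integrin α chain that alveolar macrophages share with dendritic cells. It had the widest range between the lungs of the 10 genes, 1.07 log2 units. Signals were 2.38, 3.86 and 2.16 in saline-treated mice and 1.84, 2.86 and 2.29 in rhTM-treated mice. Saline replicate 2 was highest and rhTM replicate 1 lowest, with the other 4 arrays between them in mixed order. The log2 fold change was -0.24 (-0.87 to 0.39), and it became 0.01 without saline replicate 2. By the table it was -0.42 (-0.96 to 0.12). A second, dimmer probe for this gene stayed near background on all 6 arrays and was not used.

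Adgre1 encodes F4/80, an adhesion G protein-coupled receptor widely used to mark mouse macrophages. Values of 6.56, 7.12 and 5.72 in saline-treated mice stood beside 4.60, 6.61 and 5.42 in rhTM-treated mice. Of the rhTM-treated mice, replicates 1 and 3 lay below every saline-treated mouse and replicate 2 lay among them. The log2 fold change was -0.23 (-0.64 to 0.17) with an exact permutation p of 0.30, the lowest of the 10 genes. The table gave -0.24 (-0.63 to 0.15), and -0.49 with slide as a block. With 1 array left out of the scanner output the value ran from -0.37 (without rhTM replicate 2) to -0.11 (without rhTM replicate 1). A second, dimmer probe gave -0.36 (SE 0.18) by the scanner output and -0.08 (SE 0.21) by the table.

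Pparg and Fabp4 belong to the lipid programme of the alveolar macrophage. Pparg encodes PPARγ, the nuclear receptor that GM-CSF induces as these cells mature, and it is also expressed in fat. Its signal was 2.52, 3.40 and 2.87 in saline-treated mice and 2.29, 3.45 and 2.64 in rhTM-treated mice. The highest and the lowest array were both from rhTM-treated mice, and the log2 fold change was -0.08 (-0.54 to 0.38). In the table, with the values 3.45 and 2.52 exchanged, saline-treated mice had 2.87 to 3.45 and rhTM-treated mice 2.29 to 2.64, so that every rhTM-treated mouse was below every saline-treated mouse. The table then gave -0.38 (SE 0.12, -0.67 to -0.10), with a limma adjusted p of 0.313 and the smallest exact permutation p possible, 0.10. Pparg was the 1 macrophage gene of 10 whose groups separated by the table, where 21.7% of all genes did so, 12.0% in this direction. With rhTM replicate 1 left out of the scanner output the log2 fold change was 0.05.

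Fabp4 encodes a cytoplasmic carrier of fatty acids that is induced by PPARγ and found in alveolar macrophages, fat cells and capillary endothelium. Saline-treated mice had 10.8, 7.98 and 13.4 and rhTM-treated mice had 16.4, 11.3 and 11.6. rhTM replicate 1 was highest, saline replicate 2 lowest, and the groups overlapped. With 0.30 (-0.26 to 0.87) it had the largest positive log2 fold change of the 10 genes by the scanner output, and the table gave 0.26 (-0.32 to 0.84). A second probe gave the same value, 0.30. With 1 array left out of the scanner output it ran from 0.10 (without saline replicate 2) to 0.48 (without saline replicate 3), and in the former case Mrc1 at 0.19 and Marco at 0.12 were higher. Without rhTM replicate 1, Fabp4 was at 0.13 and Marco was higher at 0.17. The table with slide as a block gave 0.63. In rhTM replicate 1, where Fabp4 was highest, the endothelial markers had a median of 0.24 log2 units above their own medians over the 6 arrays and the adipocyte markers one of -0.38. The 10 endothelial genes summed to 213 to 226 in saline-treated and 210 to 217 in rhTM-treated mice, and the 8 adipocyte genes to 7.64 to 12.9 and 7.40 to 10.9. Their part in the level of Fabp4 was not tested.

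Chil3, Ear2 and Cd68 encode proteins of the macrophage's secretory and lysosomal compartments. Chil3 encodes Ym1, a secreted chitinase-like protein made in large amounts by mouse alveolar macrophages and also by neutrophil precursors. It had 214, 207 and 219 in saline-treated mice and 248, 231 and 194 in rhTM-treated mice. The saline-treated mice lay close together, and the rhTM-treated mice lay on both sides of them. The SD was 6.06 in saline-treated and 27.3 in rhTM-treated mice (n = 3 each), although the difference in spread was not tested. The log2 fold change was 0.07 (-0.25 to 0.38) and -0.01 (-0.30 to 0.29) by the table.

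Cd68 encodes macrosialin, a glycoprotein of late endosomes and lysosomes. Its values were 24.2, 25.2 and 21.8 in saline-treated mice and 20.4, 21.8 and 24.3 in rhTM-treated mice. It varied least of the 10 genes, by 0.31 log2 units over the 6 lungs. The log2 fold change was -0.10 (-0.40 to 0.20), and it was 0.0015 (-0.29 to 0.29) by the table. The interval by the scanner output was the narrowest of the 10 genes. A second probe gave -0.17.

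Ear2 encodes a secreted ribonuclease of the eosinophil-associated family, which in mouse lung is made by alveolar macrophages as well as by eosinophils. It had 45.4, 38.7 and 38.7 in saline-treated mice and 32.4, 46.7 and 41.5 in rhTM-treated mice. Both the highest and the lowest value came from rhTM-treated mice, and the log2 fold change was -0.04 (-0.44 to 0.36), with -0.06 (-0.45 to 0.32) by the table and -0.34 (SE 0.15) by the table with slide as a block. Of the 5 eosinophil markers, Epx and Ccr3 were not well above background on all 3 arrays of either group. The 3 that were tested, Prg2, Il5ra and Alox15, summed to 0.233 to 0.368 in saline-treated and 0.203 to 0.373 in rhTM-treated mice. The log2 fold changes were 0.25 for Prg2, 0.16 for Il5ra and -1.08 for Alox15. Alox15 was well above background in each saline-treated and in no rhTM-treated mouse, with a limma adjusted p of 1.00. Its measured values nevertheless overlapped, since saline replicate 1 at 0.0211 lay below rhTM replicates 1 and 2 at 0.0228 and 0.0242, and both slide 2 arrays were below the other 4 (log2 difference -1.11, limma adjusted p 0.112). Alox15 had passed the filter through the saline-treated mice alone. Its mean was 1.54-fold higher with saline when the rhTM-treated arrays were set no lower than their dimmest probe well above background. This figure depends on that floor and was not tested. By the table Prg2 was higher in every rhTM-treated mouse, at 1.29 (0.87 to 1.71) with a limma adjusted p of 0.288. In this direction 9.68% of all genes separated by the table.

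The Ear genes are copies of each other. To show how close they are, the 250 bases before the start of Ear2 and of the copies measured beside it are given, from RefSeq on GRCm38.p6. They lie at chr14:44102404-44102653 on the plus strand for Ear2, chr14:43819640-43819889 on the minus strand for Ear1, chr14:43923597-43923846 on the minus strand for Ear10 and chr14:51853518-51853767 on the plus strand for Ear6. All lie upstream of the transcript. Each is written 5′ to 3′ along its gene. Capitals mark CCAAT in Ear2, and in the others the bases that differ from Ear2 or have no partner in it in a global alignment.
Ear2: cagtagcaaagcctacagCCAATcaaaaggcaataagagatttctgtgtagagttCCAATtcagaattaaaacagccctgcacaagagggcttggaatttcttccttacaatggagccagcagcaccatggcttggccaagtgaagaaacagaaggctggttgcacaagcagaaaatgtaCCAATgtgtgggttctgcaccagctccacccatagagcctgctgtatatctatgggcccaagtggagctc
Ear1: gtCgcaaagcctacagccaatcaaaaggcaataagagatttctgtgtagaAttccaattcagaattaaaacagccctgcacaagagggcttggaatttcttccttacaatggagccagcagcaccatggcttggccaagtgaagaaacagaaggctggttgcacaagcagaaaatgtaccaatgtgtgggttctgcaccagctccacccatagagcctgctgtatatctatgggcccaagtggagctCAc
Ear10: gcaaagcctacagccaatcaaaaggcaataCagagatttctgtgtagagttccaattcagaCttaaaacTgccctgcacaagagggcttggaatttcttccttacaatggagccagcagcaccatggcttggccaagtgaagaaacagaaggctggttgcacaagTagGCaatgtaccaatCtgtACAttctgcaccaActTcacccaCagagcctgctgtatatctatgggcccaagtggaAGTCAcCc
Ear6: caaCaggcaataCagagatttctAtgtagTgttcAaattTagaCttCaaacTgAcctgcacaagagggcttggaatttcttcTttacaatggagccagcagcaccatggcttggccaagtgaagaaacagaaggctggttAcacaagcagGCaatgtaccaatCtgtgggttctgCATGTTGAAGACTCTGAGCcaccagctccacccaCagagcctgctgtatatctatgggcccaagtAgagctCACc
Identity to Ear2 was 97.6% for Ear1 (246 of 252 aligned columns), 90.6% for Ear10 and 77.3% for Ear6. Ear2, Ear1 and Ear10 each held CCAAT 3 times on the forward strand, a number reached by 0.767% of 32851 promoter entries, and Ear6 held it 1 time. Of 4 motifs searched on both strands, CCAAT was present in 33.8% of all entries and in 7 of the 8 macrophage genes with an entry, TATAAA in 12.4% and 1, GAGGAA in 23.3% and 4, and TGACTCA in 4.46% and 2. The shares count entries, while each macrophage gene was counted once if any of its entries held the motif. Pparg had 3 entries, so the shares and the gene counts are not on the same scale. The match of these letters is a description of the sequence alone.

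The copies had different orders across the lungs. Ear1 had 12.3, 11.3 and 10.6 in saline-treated mice and 8.49, 12.7 and 12.9 in rhTM-treated mice, and like Ear2 it was lowest in rhTM replicate 1. Ear10 was highest in rhTM replicate 2, at 9.43, and lowest in rhTM replicate 3, at 6.50. Ear6 had 3.25, 3.86 and 3.87 in saline-treated mice and 4.32, 3.95 and 4.30 in rhTM-treated mice, so that every rhTM-treated mouse was above every saline-treated mouse. For this gene the log2 fold change was 0.20 (-0.10 to 0.50) with a limma adjusted p of 1.00, and 2.95% of all genes separated in this direction. A second Ear6 probe of similar brightness had 3.44, 3.84 and 3.81 in saline-treated and 3.23, 3.62 and 3.75 in rhTM-treated mice, which overlapped, with a log2 difference of -0.07. By the table the groups overlapped for Ear6, at 0.01 (-0.32 to 0.34), while Ear10 was lower in every rhTM-treated mouse, at -0.36 (-0.61 to -0.11) with a limma adjusted p of 0.313. Over all genes 12.0% separated downwards by the table. Probe sequences were not used here, and how far a probe of 1 Ear gene also binds RNA of another was not tested.

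**Figure D2:**
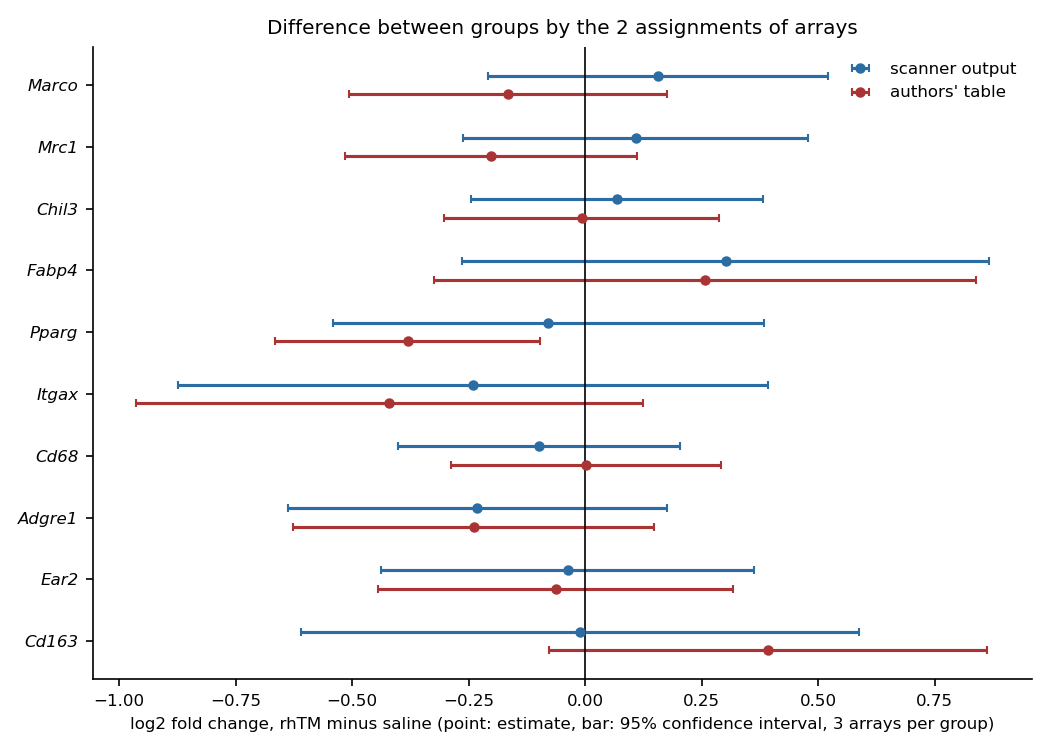
Log2 fold change between rhTM-treated and saline-treated mice for each macrophage gene, positive where the rhTM-treated mice were higher, with 95% confidence intervals from limma on 3 mice per group. The scanner output (blue) and the authors' table (red) differ in sign for Marco, Mrc1, Chil3, Cd68 and Cd163, and the interval of Pparg by the table, -0.67 to -0.10, is the 1 interval that leaves out 0.

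The assignment of a single pair of arrays thus decided the sign of 5 of the 10 genes. For Marco, Mrc1 and Chil3 the mean log2 signal of the rhTM-treated mice lay above that of the saline-treated mice in the scanner output and below it in the table, and for Cd68 and Cd163 the reverse held. For Cd163 the linear mean by the scanner output was slightly higher in rhTM-treated mice, at 1.61, so that its sign there depended on the log scale. Fabp4 was higher by both, and Pparg, Itgax, Adgre1 and Ear2 were lower by both. By the assignment of the table, 3 of 10 genes had a higher mean log2 signal, as did 46.0% of all genes. The median log2 fold change of the 10 genes was then -0.12 and that of all genes -0.02. Again 0 of 10 passed with limma, as did 0% of all genes in either direction, while 1 of 10 had an unadjusted p under 0.05 against 14.0% of all genes.

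The slides can also be compared, since each held both groups by the scanner output. Slide 2 minus slide 1 was fitted with the group in the model, on 2 against 4 arrays. Cd163 was higher on both slide 2 arrays, with a mean of 2.09 against 1.36 ± 0.0615 (SD, n = 4) on slide 1. The log2 difference was 0.62 (SE 0.11, 95% confidence interval 0.34 to 0.89), with an unadjusted p of 0.00188 and a limma adjusted p of 0.0852, which did not pass. The second probe of Cd163 did not split in this way, at 0.0360 and 0.0523 on slide 2 and 0.0266 to 0.0577 on slide 1. Mrc1 was lower on both slide 2 arrays, at 5.05 against 6.02 ± 0.663, a difference of -0.25 (-0.57 to 0.08) with a limma adjusted p of 0.402. In the remaining 8 genes the slides overlapped. Thus 2 of 10 genes separated by slide, against 32.7% of all genes, and 0 of 10 passed, against 1.39% higher and 0.0367% lower on slide 2 over all genes. For 7 of the 10 genes the difference between slides was larger in size than that between the treatments. This count was not compared with all genes. The slide difference rests on 2 against 4 arrays and the treatment difference on 3 against 3.

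**Figure D3:**
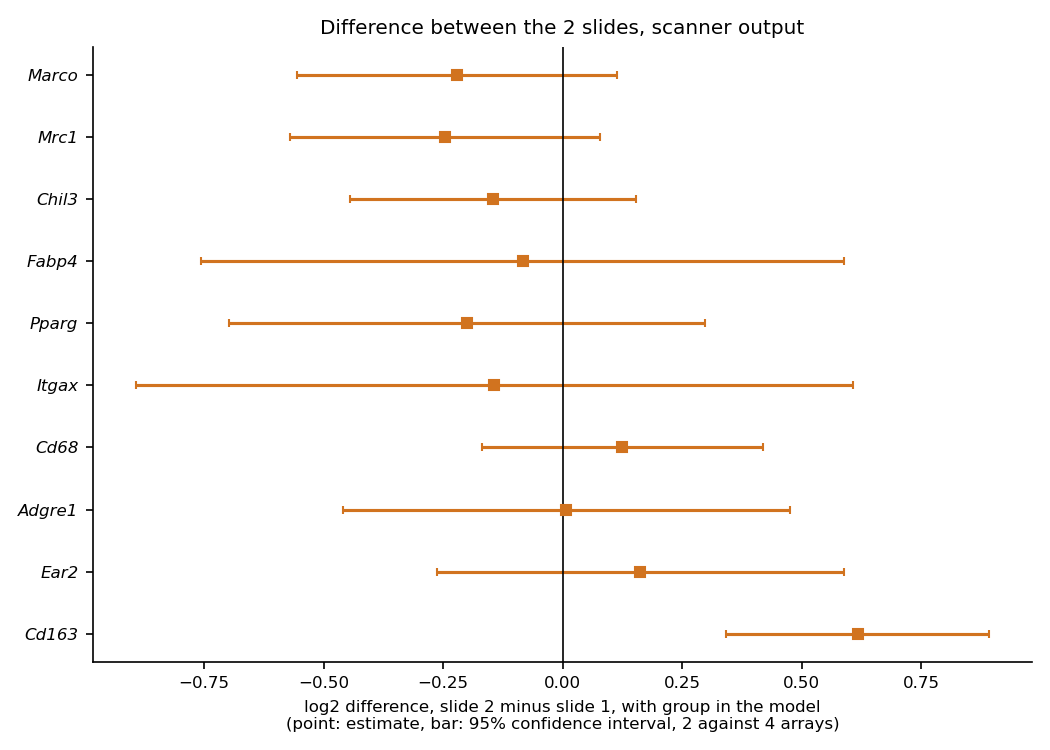
Log2 difference between slide 2 (saline replicate 1 and rhTM replicate 3) and slide 1 (the other 4 arrays) for each macrophage gene, with the group in the limma model and 95% confidence intervals. Cd163, at 0.62, is the 1 gene whose interval leaves out 0.

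Within slides, the sign of the treatment difference was the same on both slides for 5 of the 10 genes. Marco, Mrc1 and Fabp4 were higher with rhTM on each slide, and Itgax and Adgre1 were lower on each. The log2 differences of Adgre1 were -0.21 on slide 1 (2 mice per group) and -0.27 on slide 2 (1 mouse per group), and those of Fabp4 were 0.40 and 0.11. Chil3 went from 0.17 on slide 1 to -0.14 on slide 2. For Cd163 the within-slide differences were -0.09 and 0.15, both smaller than its difference between the slides. In the table no saline-treated mouse was on slide 2, so that the groups can be compared on slide 1 alone, with 1 rhTM-treated mouse, replicate 1. The table with slide as a block rests on this mouse and gave 0.18 for Chil3, -0.16 for Cd68, -0.50 for Pparg, -0.65 for Itgax, -0.04 for Marco and -0.08 for Mrc1, of which Chil3 and Cd68 turned sign against the table without the block.

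Across lungs, single arrays were the highest or the lowest for several of the genes. rhTM replicate 1 was the lowest of the 6 arrays for Pparg, Itgax, Cd68, Adgre1 and Ear2, and the highest for Chil3 and Fabp4. rhTM replicate 2 was the highest for Marco, Mrc1, Pparg and Ear2. Over all genes, rhTM replicate 1 was the lowest array for 26.6% and the highest for 29.8%, and rhTM replicate 2 the highest for 14.5%. The median of the 10 genes, each taken against its own median over the arrays, was -0.12 in rhTM replicate 1, 0.16 in rhTM replicate 2 and between -0.04 and 0.05 in the other mice. The highest of these is the array that the table gives to saline replicate 1.

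Markers of other cells also lay away from their medians in rhTM replicate 1. All 11 neutrophil genes tested were above their median there, by a median of 0.23 log2 units, and the 4 erythroid genes by 0.91. The 7 genes of alveolar type 2 cells had a median of -0.27. Summed over the list, the neutrophil genes gave 1408 to 1610 in saline-treated and 1390 to 1757 in rhTM-treated mice, and the lowest sum was that of rhTM replicate 2. The 4 erythroid genes summed to 600 to 783 and to 598 to 875, and the 7 type 2 genes to 981 to 1461 and to 895 to 1286. All of S100a8, S100a9 and Retnlg, which define the neutrophil list, were well above background. The part of these cells in the values of the macrophage genes was not tested. Without rhTM replicate 1, 0 of 10 macrophage genes separated by the scanner output, where 10.8% of all genes did so, and 0 passed with limma.

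**Figure D4:**
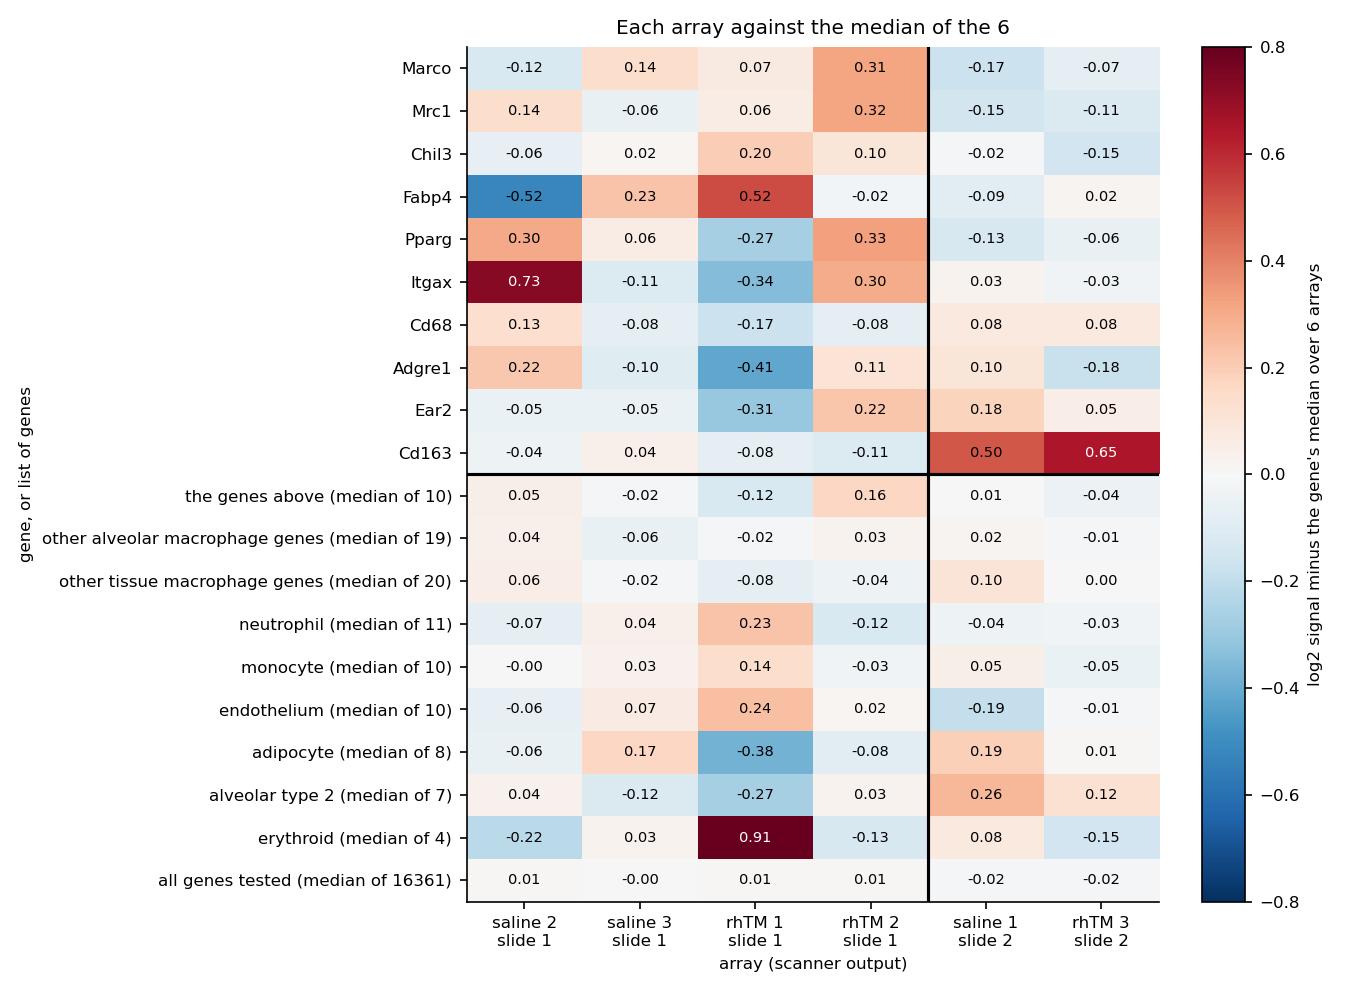
Each lung against the median of the 6 lungs, as log2 signal minus the gene's own median, by the scanner output, with the slide 1 arrays to the left of the vertical line. The upper block shows the 10 macrophage genes and the lower block the median over each gene list. Cd163 stands out on slide 2, at 0.50 and 0.65. In rhTM replicate 1, Pparg, Itgax, Adgre1 and Ear2 are low, while Fabp4 and Chil3 are high. The neutrophil and erythroid medians of that array are at 0.23 and 0.91.

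Of 19 further alveolar macrophage genes, 9 had a higher and 10 a lower mean with rhTM, their median log2 fold change was -0.02, and 0 passed the threshold. The highest log2 fold change was that of Bhlhe40, a transcription factor of alveolar macrophage self-renewal, at 0.41 (-0.16 to 0.99). It had 1.45 to 1.75 in saline-treated mice, and 3.02 in rhTM replicate 1 stood apart from 1.66 and 1.81. The lowest log2 fold change was that of the arginine transporter gene Slc7a2, at -0.19 (-1.08 to 0.70). Ctsk, which encodes the lysosomal protease cathepsin K, was the 1 gene of the 19 with every rhTM-treated mouse above every saline-treated mouse, at 6.13 to 8.03 against 5.58 to 6.12, where 2.95% of all genes separated in this direction. By the table its groups overlapped, at 0.13 (-0.24 to 0.50). There Lgals3 was above in every rhTM-treated mouse, a direction in which 9.68% of all genes separated, while a second probe of Lgals3 overlapped. Cidec, Bhlhe41 and Abcg1 were below in every rhTM-treated mouse, a direction in which 12.0% of all genes separated by the table. The table gave log2 fold changes of 0.32 for Bhlhe40 and 0.18 for Slc7a2. Siglecf, the lectin by which alveolar macrophages are commonly gated, had 1.01 to 1.25 in saline-treated and 0.779 to 1.39 in rhTM-treated mice. GM-CSF itself, encoded by Csf2, gave 2.04 to 2.39 in saline-treated mice and 0.901, 3.30 and 2.07 in rhTM-treated mice.

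The 20 further tissue macrophage genes were lower on average for 13 and higher for 7, and 0 passed with limma, while their median log2 fold change was -0.12. In 5 of them, Folr2, C1qa, C1qb, Timd4 and Apoe, every rhTM-treated mouse was below every saline-treated mouse, where 2.57% of all genes separated in this direction. C1qa and C1qb encode chains of the complement component C1q, which interstitial macrophages secrete. C1qb had 5.25, 7.05 and 5.75 in saline-treated and 4.82, 4.78 and 4.18 in rhTM-treated mice, a log2 fold change of -0.38 (-0.74 to -0.02) with an unadjusted p of 0.040 and a limma adjusted p of 1.00. C1qa had 5.03 to 6.71 and 3.99 to 4.99, a log2 fold change of -0.35 (-0.73 to 0.02). The groups overlapped for C1qc, which encodes the remaining chain, at -0.22 (-0.59 to 0.15), and the table gave 0.0039 for it. By the other assignment, none of the 20 genes separated in this direction, where 12.0% of all genes did so. C1qa was then at -0.27 and C1qb at -0.29, and the median was -0.07. Of the 20 genes, 2 were then above in every rhTM-treated mouse, where 9.68% of all genes separated in that direction. Among these was Ms4a7, although its second probe overlapped, and 9 of the 20 genes were higher on average. The lowest log2 fold change was that of the fractalkine receptor gene Cx3cr1, at -0.98 (-2.42 to 0.46), and the highest that of Pf4, a chemokine gene of platelets and of some macrophages, at 0.47 (-0.25 to 1.19). The table gave -0.62 for Cx3cr1 and 0.18 for Pf4.

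The growth factors and transcription factors of macrophages, 20 genes, were higher on average for 9 and lower for 11, with a median log2 fold change of -0.01. Their extremes were Il34 at 0.19 (-0.16 to 0.53) and Csf1 at -0.54 (-1.44 to 0.37), both of which encode ligands of the CSF-1 receptor. Csf1 was 6.06 in rhTM replicate 1 and 10.3 to 18.3 in the other mice. Among 12 genes of macrophage activation, 6 were higher and 6 lower on average. Retnla, a secreted marker of alternative activation, had 68.9, 29.2 and 65.0 in saline-treated and 201, 21.0 and 168 in rhTM-treated mice, a log2 fold change of 0.81 (-1.25 to 2.88), and Tnf gave -0.45 (-0.998 to 0.09). None of the genes in these lists passed by either assignment, and the groups overlapped in all of them by the scanner output. By the table Retnla had 21.0, 29.2 and 65.0 in saline-treated and 201, 68.9 and 168 in rhTM-treated mice, which did not overlap, and its log2 fold change was 1.96 (0.66 to 3.25) with a limma adjusted p of 0.313. It was the 1 gene of the 12 activation genes to separate there. Of the 20 growth and transcription factor genes, Cebpb, Irf8 and Abca1 separated upwards and Csf2rb, Cebpa and Cd36 downwards by the table, beside 21.7% of all genes in either direction. Further probes of Csf2rb and Abca1 overlapped there. The table gave -0.05 for Il34, -0.75 for Csf1 and -0.42 for Tnf.

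Close relatives of the macrophage genes were compared in the same way. Of 15 such genes, 14 were tested, since Itgad was not well above background on all 3 arrays of either group. Means were higher for 5 and lower for 9, their median log2 fold change was -0.01, and 0 passed the threshold. Chil4, the close copy of Chil3, had 2.21 to 2.75 in saline-treated and 2.18 to 2.39 in rhTM-treated mice, and their 250 bases before the start were 72.0% identical. Chil1, a further chitinase-like gene, had a log2 fold change of 0.06 (-0.29 to 0.40). Fabp5 (-0.05), Ppara (-0.06), Ppard (0.04), Mrc2 (-0.02), Msr1 (-0.03) and Adgre5 (-0.01) were all close to 0 on the log2 scale. The lowest log2 fold change was that of Adgre4, at -0.51 (-1.28 to 0.26), with 0.435 and 0.410 in rhTM replicates 1 and 3 and 0.748 to 0.954 in the other mice. Cd163l1, a relative of Cd163, was 1.26 in rhTM replicate 2 and 0.221 to 0.431 in the other mice. By the table, means were higher for 7 of the 14 genes and lower for 7. Itgam then separated upwards and Ear10, Mrc2 (-0.56) and Adgre4 (-0.74, -1.33 to -0.15) downwards, and Cd163l1 was at -1.10 (-2.27 to 0.06). Over all genes 9.68% separated upwards and 12.0% downwards by the table, and second probes of Mrc2 and Itgam overlapped.

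Itgam, which encodes CD11b of neutrophils, monocytes and interstitial macrophages, split by slide as Cd163 did. It was 37.9 and 42.1 on slide 2 and 24.2 ± 0.462 (SD, n = 4) on slide 1. The log2 difference between slides was 0.72 (0.48 to 0.97) with a limma adjusted p of 0.0418. A second, dimmer probe of Itgam did not split by slide, at 0.132 and 0.173 on slide 2 and 0.160 to 0.198 on slide 1. Between the treatments its log2 fold change was 0.06 (-0.61 to 0.74), and the table gave 0.51, where both slide 2 arrays belong to rhTM-treated mice.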

How the data were processed

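RNA from 6 lungs was measured on 1-colour Agilent arrays, 3 per group. The scanner files that the authors deposited hold, for each spot, a processed signal, which is a background-corrected linear intensity computed with Feature Extraction 10.7.3.1 per the file headers (the submitters' processing notes name version 9.1). A second deposited table holds the same intensities averaged per probe, in which a saline and an rhTM array are exchanged. Groups and mice were taken from the sample labels.

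Control spots and outlier-flagged spots were left out, spots of a probe were averaged, and 398 of 56605 probes flagged throughout on some array were dropped. The log2 intensity of the deposited signals was centred on the 75th percentile of each array. Accessions were matched without versions to a RefSeq table of GRCm38.p6, which named 32994 probes of 22911 genes. Genes entered the test where a probe was well above background in all 3 mice of either group or both (16361 genes, 16312 by the table), each with its brightest probe. limma 3.58.1 in R 4.3.3 was used for all fits (lmFit, eBayes), p-values were adjusted by Benjamini-Hochberg over every gene tested, and single genes were also compared by an exact two-sided permutation test. The small number of arrays limits the precision.

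The macrophage genes and all gene lists were chosen with earlier results of these data known. The genes named are the 10 macrophage genes, their close relatives, from each other list the genes with the largest rise and fall, and, of the first 3 genes of each list of other cells, those tested. Siglecf, Csf2, Folr2, C1qa, C1qb, C1qc, Timd4, Cd4, Apoe, Itgam on the slides and other genes whose groups did not overlap were named after their values were seen, and some such genes are not reported here. Same-numbered mice did not deviate together (correlations of deviations -0.30, 0.44 and -0.45), so replicate numbers were not taken as pairs. Alternatives were the table, normexp with an offset of 50 on median spot signals, quantile normalization, another percentile, looser and stricter filters, slide or replicate blocks, the mean of a gene's probes, array weights, the methods' t-test and each array left out, and 4 further ones were chosen after seeing the data.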

Additional observations from a re-analysis of the deposited data

How the results depend on the processing

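By the scanner output, 0 of 10 macrophage genes passed the limma threshold under any of the 17 alternatives, and with the replicate block the count of calls was also 0. The number of genes whose groups separated, 0 by the scanner output, was 1 with the mean of a gene's probes (6.04% of all genes), 0 to 2 with 1 array left out (8.85% to 24.4%; 2 without saline replicate 3 or rhTM replicate 3, 1 without rhTM replicate 2) and 2 without both exchanged arrays (41.2%). For the authors' table it was 1 (21.7%), also with slide as a block, and 2 with quantile normalization of the table (22.3%) and 1 to 4 with 1 array left out of the table (26.6% to 45.9%). The median log2 fold change of the 10 genes was -0.07 to 0.08 with 1 array left out, -0.23 by the table with quantile normalization and -0.14 to -0.05 by the table with 1 array left out. Calls by the table were 0 to 1 of the 10 genes and 0 to 3 genes of the other lists with 1 array left out, all of them without rhTM replicate 1, and 3 genes of the other lists with the slide as a block, where 432 genes passed over the whole array.

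Signs turned as follows, in log2 fold changes, and the cause was not tested. By the table they were -0.17 for Marco, -0.20 for Mrc1, -0.0074 for Chil3, 0.0015 for Cd68 and 0.39 for Cd163. With the table and slide as a block, Marco was at -0.039 and Mrc1 at -0.076, and Chil3 (0.18), Cd68 (-0.16) and Cd163 (-0.039) turned against the table without the block, while Ear2 was at -0.34. With quantile normalization of the table, Marco was at -0.23, Mrc1 at -0.23, Chil3 at -0.26 and Cd163 at 0.39. Without both exchanged arrays, Marco was at -0.0080, Mrc1 at -0.070 and Cd163 at 0.29. Pparg and Itgax kept their sign there, at -0.35 and -0.50, their lowest values under the 17 scanner alternatives. Normexp gave 0.0030 for Cd163, quantile normalization -0.020 for Chil3, and array weights 0.054 for Ear2 and 0.12 for Cd163. With 1 array left out of the scanner output, the range was -0.0066 to 0.21 for Mrc1, -0.0071 to 0.17 for Chil3, -0.24 to 0.053 for Pparg, -0.40 to 0.015 for Itgax, -0.15 to 0.11 for Ear2 and -0.26 to 0.15 for Cd163. The arrays that turned a sign were saline replicate 1 (Ear2, Cd163), saline replicate 2 (Pparg, Itgax), rhTM replicate 1 (Chil3, Pparg, Ear2, Cd163) and rhTM replicate 2 (Mrc1, Cd163). With 1 array left out of the table it was -0.28 to -0.065 for Marco, -0.30 to -0.11 for Mrc1, -0.10 to 0.074 for Chil3, -0.041 to 0.084 for Cd68, -0.47 to -0.32 for Pparg, -0.63 to -0.21 for Itgax, -0.17 to 0.076 for Ear2 and 0.25 to 0.61 for Cd163. Fabp4, Cd68 and Adgre1 kept their sign under all 17 scanner alternatives, and Fabp4, Adgre1, Pparg and Itgax under all 9 table ones.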

Other observations

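Of the lists of other lung cells, 0 genes passed with limma by either assignment. Means of log2 signals were higher with rhTM for 8 of 11 neutrophil genes (median log2 fold change 0.10), 6 of 10 monocyte genes (0.08), 7 of 10 endothelial genes (0.14) and 4 of 4 erythroid genes (0.17). They were lower for 7 of 7 type 2 genes (-0.12), 4 of 5 type 1 genes (-0.17), 7 of 8 adipocyte genes (-0.25), 3 of 5 dendritic cell genes (-0.03) and 5 of 9 lymphocyte genes (-0.14). By the table they were higher for 8 of 11 neutrophil genes (0.20), 5 of 10 monocyte genes (-0.02), 5 of 10 endothelial genes (0.02), 4 of 4 erythroid genes (0.30), 4 of 7 type 2 genes (0.11), 1 of 5 type 1 genes (-0.05), 3 of 8 adipocyte genes (-0.15), 2 of 5 dendritic cell genes (-0.01) and 3 of 9 lymphocyte genes (-0.19). The 3 eosinophil genes tested had a median of 0.16, and the 2 tested by the table one of 0.80.

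By the scanner output the neutrophil genes ran from -0.31 for Ltf to 0.49 for Camp, with S100a8 at 0.10, S100a9 at 0.03 and Retnlg at 0.19. In every rhTM-treated mouse S100a8, S100a9 and Lcn2 were above by the table, where 9.68% of all genes separated in this direction. Those of monocytes ran from -0.66 for Ace to 0.23 for Vcan. Of the same list, Ly6c2 (-0.12) and Ccr2 (-0.19) were below in every rhTM-treated mouse, a direction in which 2.57% of all genes separated, with 295 to 312 and 263 to 287 for Ly6c2 and 0.503 to 0.558 and 0.438 to 0.482 for Ccr2. By the table both overlapped, at -0.08 each.

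The endothelial genes ran from -0.47 for Ramp2 to 0.45 for Gpihbp1, with Pecam1 at -0.42, Cdh5 at 0.13 and Kdr at 0.19. Ednrb was above in every rhTM-treated mouse by the scanner output, where 2.95% of all genes separated in this direction. A second Ednrb probe overlapped. Pecam1, Tek and Emcn were below by the table, a direction in which 12.0% of all genes separated. Type 2 genes ran from -0.47 for Slc34a2 to -0.04 for Abca3, with Sftpc at -0.16, Sftpb at -0.11 and Sftpa1 at -0.05, and type 1 genes from -0.67 for Cav1 to 0.17 for Aqp5, with Ager at -0.17, Hopx at -0.01 and Pdpn at -0.29. Adipocyte genes ran from -0.84 for Pck1 to 0.05 for Lep, with Adipoq at -0.32, Plin1 at -0.48 and Plin4 at -0.18. Erythroid genes ran from 0.01 for Hba-a1 to 0.39 for Slc4a1, with Hbb-bt at 0.23 and Alas2 at 0.11, and dendritic cell genes from -0.28 for Zbtb46 to 0.12 for Ccr7, with Flt3 at -0.03. Lymphocyte genes ran from -0.58 for Ncr1, below in every rhTM-treated mouse, to 0.24 for Cd3d, with Cd3e at 0.07. In the direction of Ncr1, 2.57% of all genes separated. By the table Aqp5, Ccr7, Hba-a1 and Slc4a1 were above and Batf3 and Cd79a below in every rhTM-treated mouse. Over all genes 9.68% separated upwards and 12.0% downwards there, and second probes of Aqp5, Ccr7 and Hba-a1 overlapped.

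Of 56 listed genes with a further probe that passed the filter, the next brightest probe had a difference of opposite sign for 11 by the scanner output.

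The T-cell gene Cd4, which some mouse macrophages also express, had the largest difference between the slides of the genes on all lists. It was 22.6 in saline replicate 1 and 19.4 in rhTM replicate 3, both on slide 2, and had a mean of 3.47 ± 0.513 (SD, n = 4) on slide 1. The log2 difference was 2.61 (95% confidence interval 2.20 to 3.01) with a limma adjusted p of 0.00578. A second, far dimmer Cd4 probe had 0.0491 and 0.0456 on slide 2 and 0.0332 to 0.0378 on slide 1. The brightest probes of Cd163 and Itgam were higher on the same arrays.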
